A study of Homo sapiens with 12 samples.

Results

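The 44 genes described here are cytokine and chemokine genes, genes of the feedback on NF-kB and the acute phase genes SAA1 and SAA2, out of 58051 genes in the count tables. They were taken as a named list and matched by symbol to Ensembl gene identifiers, and all 44 were found. Their expression was followed in 12 poly(A) RNA-seq libraries of 2 human head and neck squamous cell carcinoma (HNSCC) lines, FaDu from the hypopharynx and Cal27 from the tongue. Each line was sampled as parental cells, as afatinib-resistant (AfaR) cells and as erlotinib-resistant (ErlR) cells, with 2 libraries for each of the 6 groups. The genotype of every group is given as WT. Erlotinib inhibits the kinase of EGFR, and afatinib inhibits EGFR and other ERBB family kinases. Per the methods of the study, each resistant model was raised by stepwise exposure of the parental line to its drug. Its stocks were passaged in that drug and were without it for only a day before experiments. Each model is therefore 1 selected population. FaDu was grown in EMEM and Cal27 in DMEM, so that line and medium cannot be told apart in any comparison between lines. Both libraries of a group are named biological replicates, and p-values measure the spread between them.

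Most of these genes respond to NF-kB, a family of transcription factors held in the cytoplasm by inhibitor proteins until a receptor for interleukin 1, tumor necrosis factor or microbial products activates the IKK kinases. The released factor enters the nucleus and activates genes of secreted ligands and also the genes of its own inhibitors, such as NFKBIA and TNFAIP3, which close a feedback loop. Squamous carcinoma cells are known to secrete interleukin 1, neutrophil-attracting chemokines, IL6 and colony-stimulating factors.

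Promoter sequences are shown for the neutrophil-attracting chemokines CXCL1, CXCL2, CXCL3 and CXCL8, because these similar genes lie in 1 cluster on chromosome 4 and carry some of the highest values below. Those of NFKBIA and TNFSF10 were added after their values had been seen, as examples of a feedback gene and of a gene without an NF-kB match. Each window holds the 250 bases before the RefSeq start in GRCh38.p14, read 5′ to 3′ along the gene's strand. Capitals mark a match to the NF-kB motif GGNNNTTCC, or for TNFSF10 a match on the opposite strand to the ISRE motif GAAANNGAAA. For CXCL2, CXCL3, CXCL8 and TNFSF10 the end of the window reaches into the gene as the count tables annotate it. The windows lie at chr4:73869143-73869392 on the plus strand for CXCL1, chr4:74099196-74099445 on the minus strand for CXCL2, chr4:74038690-74038939 on the minus strand for CXCL3 and chr4:73740319-73740568 on the plus strand for CXCL8. Those of NFKBIA and TNFSF10 lie on the minus strand at chr14:35404750-35404999 and chr3:172523431-172523680.
CXCL1: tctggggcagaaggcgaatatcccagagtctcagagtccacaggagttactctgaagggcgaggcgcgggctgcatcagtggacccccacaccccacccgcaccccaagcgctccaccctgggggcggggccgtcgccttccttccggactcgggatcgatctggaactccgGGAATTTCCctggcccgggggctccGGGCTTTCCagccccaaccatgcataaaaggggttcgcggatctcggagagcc
CXCL2: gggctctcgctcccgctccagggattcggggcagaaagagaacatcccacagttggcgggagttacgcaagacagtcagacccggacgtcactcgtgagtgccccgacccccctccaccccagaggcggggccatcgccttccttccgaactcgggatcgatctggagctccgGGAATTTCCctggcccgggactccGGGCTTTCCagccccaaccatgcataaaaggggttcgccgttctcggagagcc
CXCL3: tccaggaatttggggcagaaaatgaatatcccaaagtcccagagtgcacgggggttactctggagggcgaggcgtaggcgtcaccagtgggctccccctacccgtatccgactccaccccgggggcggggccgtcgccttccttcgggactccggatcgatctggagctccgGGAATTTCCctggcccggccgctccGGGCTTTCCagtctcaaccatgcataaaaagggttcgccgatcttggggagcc
CXCL8: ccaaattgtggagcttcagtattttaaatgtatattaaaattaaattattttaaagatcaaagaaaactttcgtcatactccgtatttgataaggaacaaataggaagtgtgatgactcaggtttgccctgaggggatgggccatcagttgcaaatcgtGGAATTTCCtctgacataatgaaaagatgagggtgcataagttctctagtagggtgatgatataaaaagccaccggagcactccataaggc
NFKBIA: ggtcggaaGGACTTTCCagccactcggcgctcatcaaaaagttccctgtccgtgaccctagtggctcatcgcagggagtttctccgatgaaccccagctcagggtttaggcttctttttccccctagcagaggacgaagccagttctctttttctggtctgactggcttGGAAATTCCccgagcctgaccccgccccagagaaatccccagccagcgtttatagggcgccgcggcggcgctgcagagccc
TNFSF10: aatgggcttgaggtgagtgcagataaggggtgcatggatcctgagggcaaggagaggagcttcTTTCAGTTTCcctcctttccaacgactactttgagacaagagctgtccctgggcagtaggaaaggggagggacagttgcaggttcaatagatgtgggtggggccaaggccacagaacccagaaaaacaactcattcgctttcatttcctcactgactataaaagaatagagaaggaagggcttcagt

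A window was found in the RefSeq table for 32 of the 44 genes. On either strand, the NF-kB motif was present in 16 of these 32 windows and in 17.1% of all 27305 promoter windows. The 16 genes were CXCL1, CXCL2, CXCL3, CXCL5, CXCL6, CXCL8, CXCL10, CXCL11, CCL20, CSF2, IL6, IL32, BIRC3, NFKBIA, NFKBIZ and TNFAIP3. All 6 chemokines of the group with the ELR sequence, CXCL1, CXCL2, CXCL3, CXCL5, CXCL6 and CXCL8, held the letters GGAATTTCC, which match on both strands, with the first base between -91 and -77 from the start. CXCL1, CXCL2 and CXCL3 held a further match, GGGCTTTCC, at -53, and CXCL8 did not. Compared base by base without gaps, the windows of CXCL1 and CXCL3 were identical at 162 of 250 positions, those of CXCL1 and CXCL2 at 117 and those of CXCL2 and CXCL3 at 110. GGAATTTCC began at -77 in CXCL2 and at -78 in CXCL1 and CXCL3. The bases before it were thus out of step, and the counts with CXCL2 can understate its likeness to these 2 windows. CXCL8 matched these 3 windows at 56 to 67 positions. The ISRE, the response element of interferon-regulated factors, matched in 3 of 32 windows, those of CXCL10, IL24 and TNFSF10, against 3.07% of all windows. The letters TATAAA matched in 9 of 32, against 11.1% of all. These matches are letters in a window and do not show binding.

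The libraries held 16334937 to 23399259 counts on genes. Values are CPM, counts scaled to the size of each library, normalised with TMM over all 12 libraries, and levels of different genes are compared only per kilobase of gene model. Differences were tested with edgeR's quasi-likelihood test on all genes, and p-values were adjusted by Benjamini-Hochberg over all genes tested. A gene was called at an adjusted p under 0.05 with a log2 fold change over 1 in size, and SE stands for the standard error of that change. Within 2 groups, 1 library stood apart for these genes. In FaDu AfaR, 10 of 27 members with at least 40 counts over the pair were more than 2-fold higher in replicate 2 than in replicate 1, against 3.51% of all genes. In Cal27 parental, 12 of 35 were more than 2-fold higher in replicate 2, against 2.75% of all genes.

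Squamous epithelial markers were present in every group, with a summed level of 4935 to 12199 CPM in FaDu, 3585 to 4489 CPM in Cal27 parental and 4231 to 4279 CPM in Cal27 ErlR. In Cal27 AfaR the sum was 769 to 879 CPM, and 7 of the 8 markers were called lower, KRT14 most (log2 fold change -7.24). All 8 squamous markers kept a mean above 1 CPM there. In Cal27 ErlR 3 of the 8 were called lower. The 8 fibroblast markers summed to 30.1 to 41.6 CPM in Cal27 parental, 315 to 327 CPM in AfaR and 5.30 to 10.6 CPM in ErlR, and to 4.61 to 10.2 CPM in FaDu. Of 5 fibroblast markers tested in Cal27, 3 were called lower in ErlR and 3 higher in AfaR, LUM and COL1A1 among the latter, while COL3A1 and DCN stayed below 1 CPM in Cal27 AfaR. The 8 leukocyte markers summed to 14.6 to 24.2 CPM in all groups, MS4A1 was at 0 in every library and CD3E was at 0 in all but 1. The 6 endothelial markers summed to 32.0 to 33.2 CPM in Cal27 parental, 30.4 to 37.6 CPM in AfaR and 2.68 to 6.48 CPM in ErlR, where 1 of 2 tested was called lower, and to 3.20 to 20.7 CPM in FaDu. In Cal27 parental each of these 2 sums was mostly 1 gene, COL1A1 at 25.4 and 35.5 CPM among the fibroblast and CDH5 at 30.3 and 30.7 CPM among the endothelial markers. PECAM1 did not fall in Cal27 ErlR, with 1.22 and 1.40 CPM in the parental and 1.41 and 1.65 in the ErlR libraries. The part of these shifts in the values below was not tested.

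**Figure D1:**
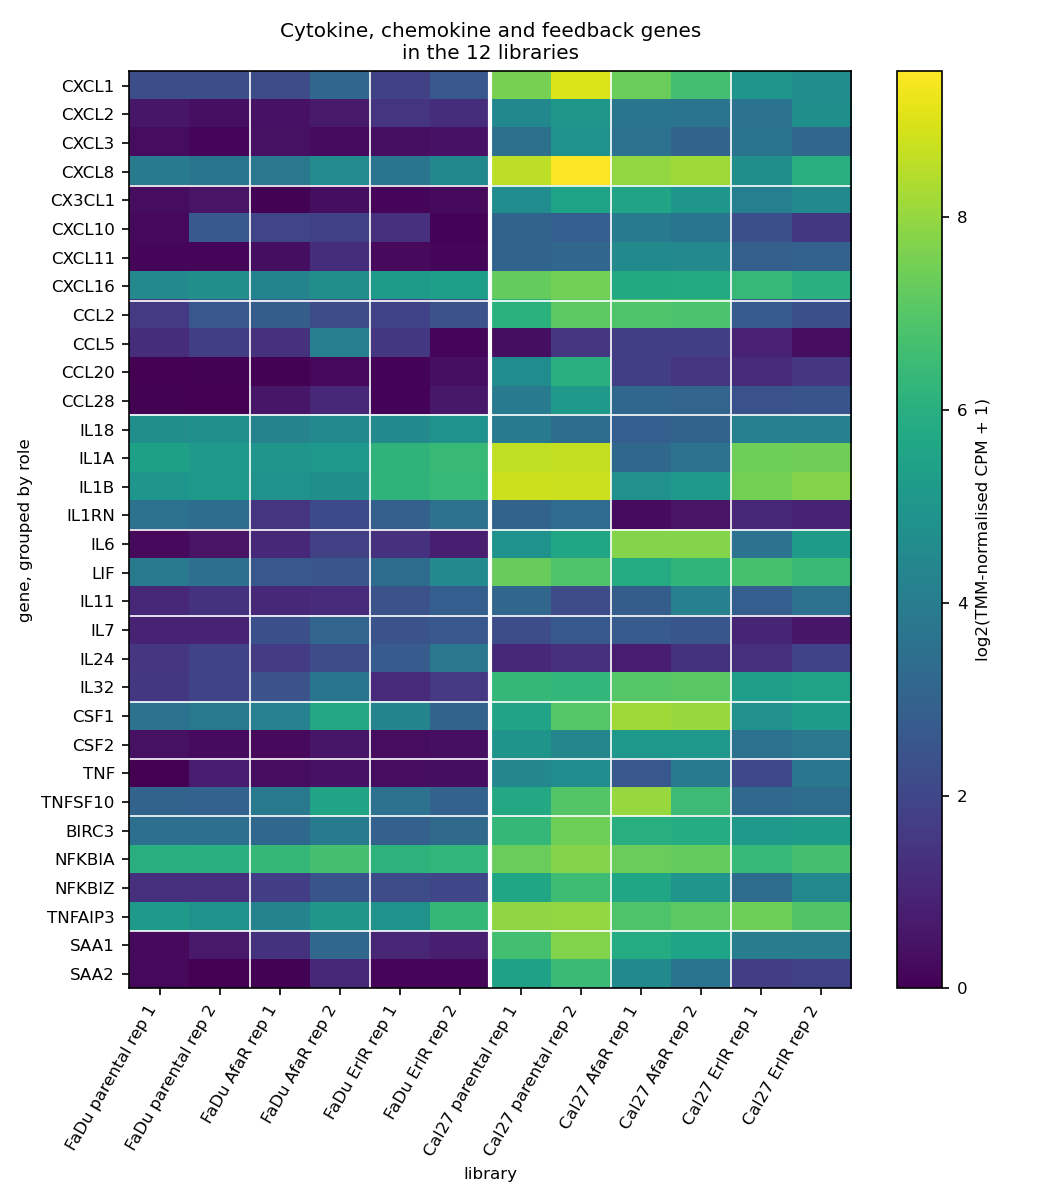
Expression of the 32 genes that reached a mean of 5 CPM in 1 group or more, as log2 of normalised CPM plus 1, in each of the 12 libraries (columns). Rows are grouped by role and separated by white lines. The 6 Cal27 libraries on the right are brighter than the 6 FaDu libraries for most rows, and IL1A and IL1B are dark among the Cal27 libraries only in AfaR.

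The largest share of calls lay between the parental lines. Of 38 members tested, 31 were higher in Cal27 parental than in FaDu parental cells, where 19.1% of all genes tested were higher, and 1 member, IL18, was lower, against 12.5% of all genes. Among the 31, CCL20, CXCL3, CXCL5, CXCL11, CX3CL1, CSF2, CSF3, SAA2 and TNF did not pass the filter on low counts within FaDu. They entered the test through their Cal27 counts, so their direction followed from the filter. Of the 38, 29 passed the filter within both lines. The median log2 fold change was 3.69 for all 38 members and 0.04 for all genes. With 5 CPM as a limit, 12 of the 44 genes reached it in FaDu parental and 29 in Cal27 parental cells, and 22 against 6 had means below 1 CPM. In bulk libraries, fewer expressing cells and less RNA per cell cannot be told apart. Per kilobase, the highest levels in FaDu parental were those of NFKBIA at 27.2 ± 0.596 (SD, n = 2), IL1A at 17.7 ± 2.62 and IL1B at 10.7 ± 0.836 CPM. In Cal27 parental they were those of CXCL1 at 265 ± 171, CXCL8 at 243 ± 110.5, SAA1 at 201 ± 102 and IL1A at 186 ± 1.62 CPM per kilobase. The order among these 4 genes in Cal27 was not separated by the spread between the libraries.

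**Figure D2:**
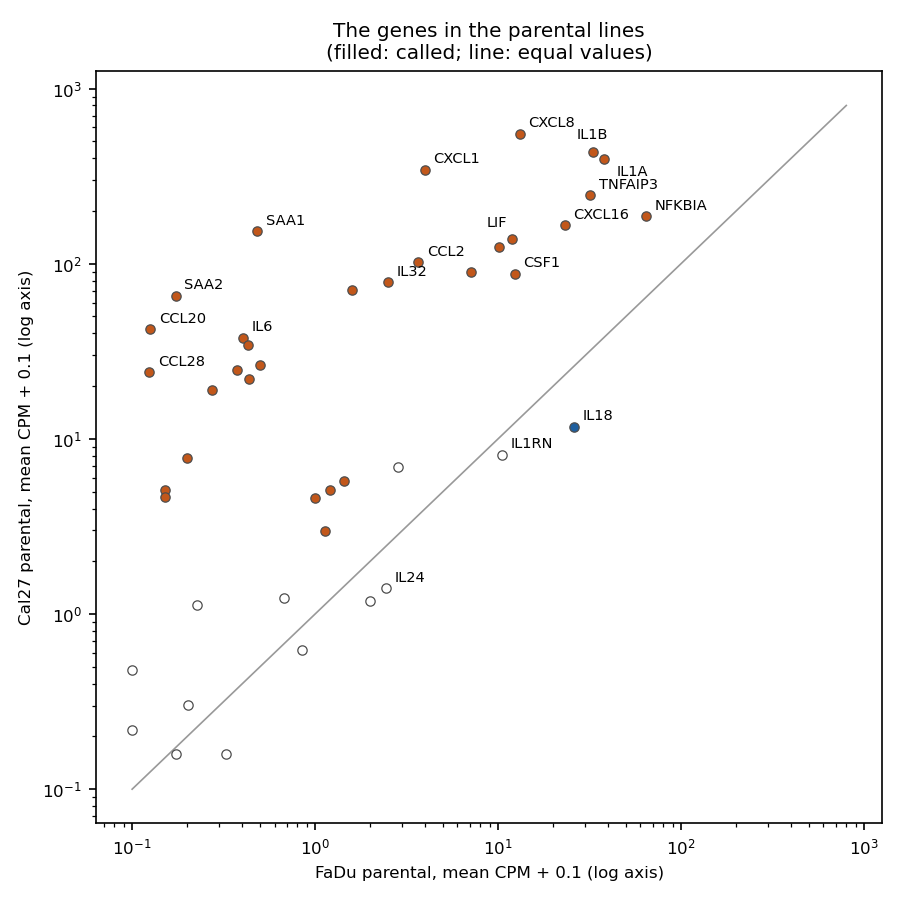
Mean normalised CPM plus 0.1 of the 44 genes in FaDu parental (x, log axis) and Cal27 parental cells (y, log axis), 2 libraries each. Orange points were called higher in Cal27, the blue point (IL18) lower, and white points were not called or not tested. Of the 38 genes tested, 31 are orange, some of which entered the test through their Cal27 counts alone.

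The resistant models moved these genes in different directions. In Cal27 ErlR against Cal27 parental, 22 of 38 members tested were lower, against 9.92% of all genes, and 0 were higher, against 3.56% of all genes. The count of higher members was also 0 at an unadjusted p and with DESeq2. The calls in Cal27 ErlR stood beside the lower sums of fibroblast and endothelial markers given above, mostly COL1A1 and CDH5, whose part in them was not tested. In Cal27 AfaR, 14 of 38 were lower, against 8.06% of all genes, and 3 were higher, against 11.5%. In FaDu AfaR, 9 of 29 members tested were higher, against 6.48% of all genes, and 2 were lower, against 0.954%. With DESeq2 the FaDu AfaR counts were 6 higher and 2 lower. In FaDu ErlR, 6 of 29 were higher, against 1.54%, and 0 were lower, against 0.504%, with 0 lower members also at an unadjusted p and with DESeq2. The median log2 fold change over the members tested was -1.21 in ErlR and -0.92 in AfaR cells of Cal27, and 0.64 in ErlR and 0.49 in AfaR cells of FaDu, where the median of all genes lay between -0.03 and 0. The 2 models of a line share their parental libraries. A gene could pass the filter on low counts through 1 group alone, and 15 members in FaDu and 6 in Cal27 did not pass it. CXCL5 and CSF3 passed it in Cal27 only through the parental libraries, and CCL28 in FaDu only through the AfaR libraries. They are among the members counted as lower in both Cal27 models and higher in FaDu AfaR, and the direction of these calls followed from the filter.

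The FaDu counts fell when most single libraries were left out, which leaves 1 library in a group. Some calls were lost though the change hardly moved. IL7 in FaDu ErlR gave log2 fold changes of 2.29, 2.39 and 2.25 without parental replicate 1, parental replicate 2 or ErlR replicate 2. Other changes moved with 1 library. TNFSF10 in FaDu AfaR gave 2.06 and 2.03 without parental replicate 1 or 2, and 0.91 without AfaR replicate 2. In FaDu AfaR, 11 calls became 1 without parental replicate 1, 3 without parental replicate 2 and 2 without AfaR replicate 2, and only IL7 was called each time. In FaDu ErlR, 6 calls became 2 or 1 without either parental library and 1 without ErlR replicate 2, and only IL1B was called each time. In Cal27 AfaR, 17 calls became 15 without parental replicate 2 and 11 without AfaR replicate 1. In Cal27 ErlR, 22 calls became 19 without parental replicate 2. In all, 32 members were called in at least 1 model, 12 in none, and 12 were lower in both Cal27 models. No member was called in the same direction in all 4 models, and 7 were called in opposite directions in different models. The matching shares of all genes were not counted, so these totals have no background to be set against. Few genes of any kind were called in FaDu ErlR, 1.54% higher and 0.504% lower, which limits calls shared by all 4 models. The 12 lower in both Cal27 models rest on the same parental libraries.

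**Figure D3:**
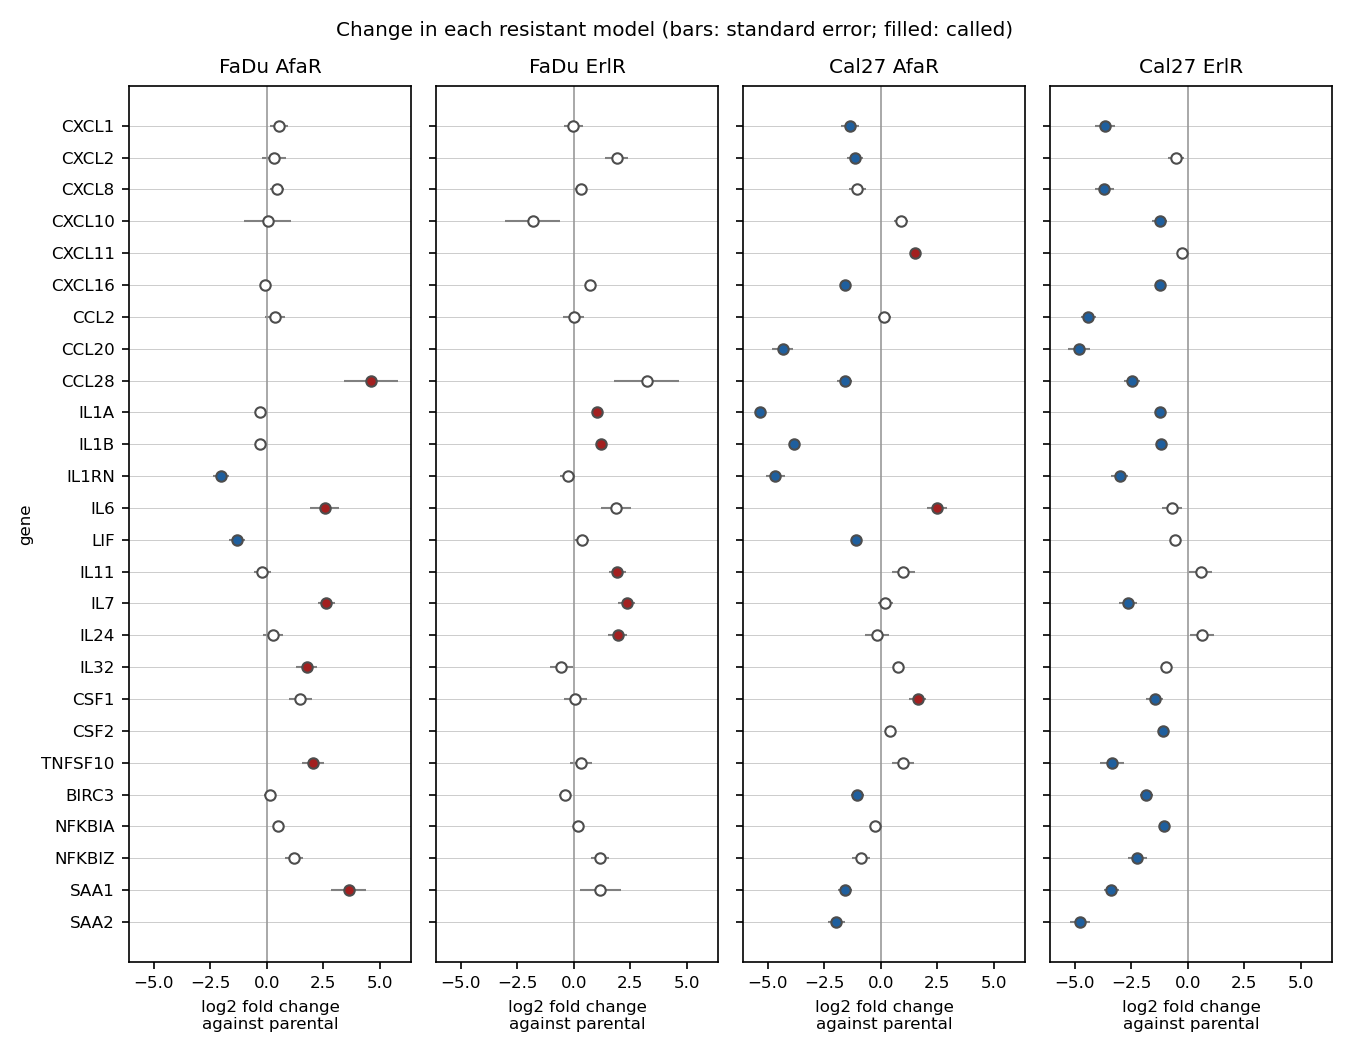
Log2 fold change of each resistant model against its parental group (x) for the genes that reached a mean of 5 CPM in some group and were called in at least 1 model, with the standard error as a bar. Filled points were called, red for higher and blue for lower, white points were not, and a missing point was not tested. Blue points fill the Cal27 ErlR panel, which holds no red one.

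The largest fall among the members that reached a mean of 5 CPM was that of IL1A in Cal27 AfaR. IL1A encodes a cytokine stored in epithelial cells and released on damage, IL1B a related cytokine that caspase cleavage activates, and IL1RN their receptor antagonist. All 3 lie on chromosome 2, IL1A at chr2:112773915-112784590, IL1B at chr2:112829751-112836903 and IL1RN at chr2:113107214-113134016. In Cal27, IL1A had 392 and 397 CPM in the parental, 8.37 and 11.0 in the AfaR and 171 and 173 in the ErlR libraries. Both resistant models lay below parental cells without overlap, AfaR by 40.8-fold (log2 fold change -5.35, SE 0.17, adjusted p = 4.18e-07) and ErlR by 2.33-fold (log2 fold change -1.22, SE 0.14, adjusted p = 0.000506). IL1B in Cal27 had 446 and 426 CPM in the parental, 26.8 and 34.1 in the AfaR and 183 and 213 in the ErlR libraries. IL1B fell 14.3-fold in AfaR (log2 fold change -3.84, SE 0.17, adjusted p = 2.20e-06) and 2.24-fold in ErlR (log2 fold change -1.16, SE 0.15, adjusted p = 0.000865). All 4 of these calls held whichever library was left out. The antagonist fell as well, with IL1RN at 7.11 and 8.93 CPM in the parental, 0.216 and 0.406 in the AfaR and 1.09 and 0.917 in the ErlR libraries of Cal27. Its log2 fold change was -4.67 (adjusted p = 4.74e-05) in AfaR and -3.02 (adjusted p = 0.000626) in ErlR, and both calls held with any library left out.

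In FaDu ErlR, IL1A and IL1B went the other way. IL1A had 41.6 and 33.7 CPM in the parental, 30.0 and 32.7 in the AfaR and 71.8 and 85.5 in the ErlR libraries of FaDu, and IL1B had 31.2 and 34.8 CPM in the parental, 28.1 and 25.6 in the AfaR and 71.2 and 82.2 in the ErlR libraries. The ErlR libraries were above all other FaDu libraries for both genes, with log2 fold changes of 1.05 (adjusted p = 0.0107) for IL1A and 1.20 (adjusted p = 0.00588) for IL1B. The IL1A call was lost without parental replicate 2 or ErlR replicate 2, where its log2 fold change was 0.91 (adjusted p = 0.0889) and 0.92 (adjusted p = 0.0575). In FaDu AfaR neither gene was called, at log2 fold changes of -0.28 (adjusted p = 0.198) and -0.32 (adjusted p = 0.124). IL1RN in FaDu had 11.1 and 9.72 CPM in the parental, 1.70 and 3.41 in the AfaR and 6.65 and 10.9 in the ErlR libraries. It fell 4.09-fold in AfaR (log2 fold change -2.03, SE 0.35, adjusted p = 0.00838) and was not called in ErlR, at a log2 fold change of -0.26 (adjusted p = 0.714). Without AfaR replicate 2 the AfaR change was -2.63 (adjusted p = 0.0173). The AfaR call was lost without parental replicate 1, at a log2 fold change of -1.94 (adjusted p = 0.0563).

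IL18, the cytokine of this family known for inducing interferon gamma, was the member that was lower in Cal27 parental than in FaDu parental cells. It had 25.3 and 26.7 CPM in the parental, 18.0 and 21.4 in the AfaR and 21.7 and 27.7 in the ErlR libraries of FaDu and 13.9 and 9.39 CPM in the parental, 6.26 and 7.37 in the AfaR and 16.2 and 16.9 in the ErlR libraries of Cal27. The log2 fold change between the parental lines was -1.16 (adjusted p = 0.000367), and without Cal27 parental replicate 2 it was -0.90 (adjusted p = 0.00549). With ERCC scaling it was -0.58 and no longer called. IL18 was not called in any of the 4 models. IL33 and IL36G, other alarmin-type members of the family, had at most 0.588 and 0.244 CPM in their highest libraries and were not tested. The interleukin 1 calls in Cal27 AfaR stood beside the fall of the squamous markers given above, whose part in them was not tested.

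**Figure D4:**
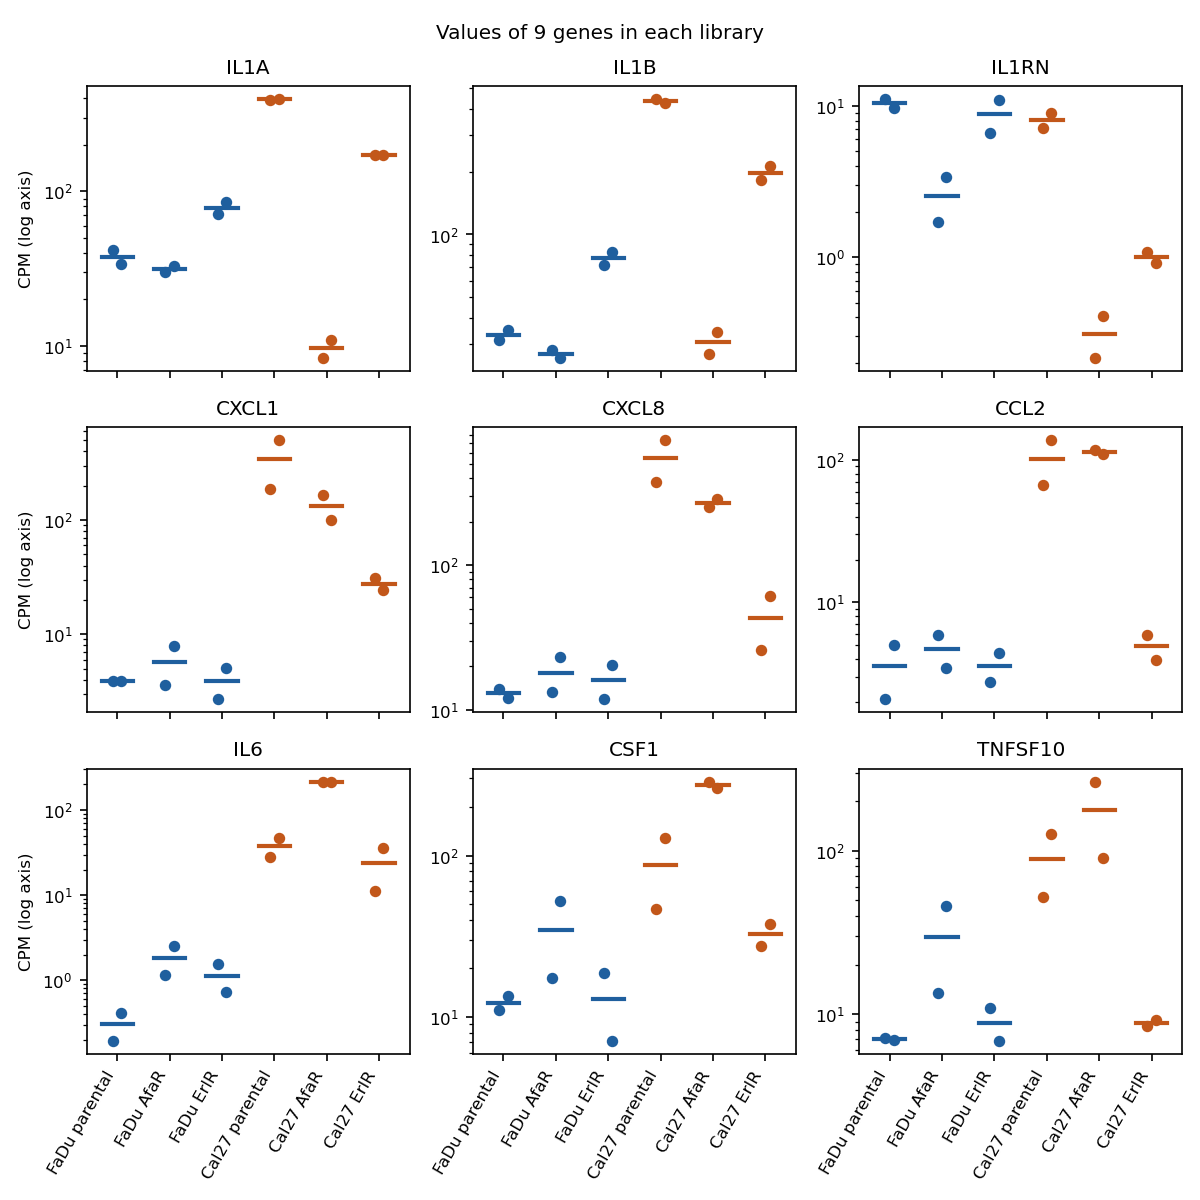
Normalised CPM on log axes of 9 genes in each library (points, 2 per group) with the group mean as a line, FaDu in blue and Cal27 in orange. IL1A and IL1B are lowest among the Cal27 groups in AfaR, where IL6 and CSF1 are highest, and CXCL1, CXCL8 and CCL2 are lowest among the Cal27 groups in ErlR.

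Among the ELR chemokines, which attract neutrophils through CXCR2, 3 of 5 tested members were lower in each Cal27 model. The shares of all genes were 8.06% in AfaR and 9.92% in ErlR. The 3 were CXCL1, CXCL2 and CXCL5 in AfaR and CXCL1, CXCL5 and CXCL8 in ErlR. In FaDu 0 of 3 tested were called in either model with edgeR. This is near the shares of all genes there, 6.48% higher and 0.954% lower in AfaR and 1.54% and 0.504% in ErlR. At an unadjusted p the FaDu counts were 0 in AfaR and 1 in ErlR, and with DESeq2 they were 0. CXCL8 encodes interleukin 8 and lies at chr4:73740506-73743716, in the same cluster as CXCL1 at chr4:73869393-73871242, CXCL2 at chr4:74097035-74099293 and CXCL3 at chr4:74036589-74038807. CXCL8 had 375 and 730.2 CPM in the parental, 253 and 287 in the AfaR and 25.8 and 60.9 in the ErlR libraries of Cal27. The ErlR libraries lay 13.0-fold below parental cells (log2 fold change -3.70, SE 0.42, adjusted p = 0.000459), and the AfaR libraries were also below both parental ones but were not called (log2 fold change -1.03, SE 0.38, adjusted p = 0.0553). CXCL1 had 188 and 500.0 CPM in the parental, 167 and 100.2 in the AfaR and 31.1 and 24.3 in the ErlR libraries of Cal27. It fell 12.6-fold in ErlR (log2 fold change -3.66, SE 0.44, adjusted p = 0.000643) and 2.57-fold in AfaR (log2 fold change -1.36, SE 0.40, adjusted p = 0.024). The parental pair was itself spread widely, and without parental replicate 2 the CXCL1 change was -2.77 (adjusted p = 4.34e-05) in ErlR and -0.48 (adjusted p = 0.192) in AfaR. For CXCL8 in ErlR it was -4.42 (adjusted p = 9.82e-05) without ErlR replicate 2 and, without parental replicate 2, -3.12 (adjusted p = 7.87e-05). The CXCL1 call in AfaR was also lost without either AfaR library, at log2 fold changes of -1.78 (adjusted p = 0.0529) and -1.02 (adjusted p = 0.17).

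CXCL2 and CXCL3, which share more with CXCL1 than CXCL8 does in the promoter windows above, followed it only in part. CXCL2 had 20.9 and 31.4 CPM in the parental, 12.0 and 11.6 in the AfaR and 11.3 and 25.9 in the ErlR libraries of Cal27. It was lower in AfaR (log2 fold change -1.14, SE 0.35, adjusted p = 0.0272), a call lost without parental replicate 2 or either AfaR library, and in ErlR, where replicate 2 lay between the parental libraries, its log2 fold change was -0.52 (adjusted p = 0.284). CXCL3 had 10.5 and 27.5 CPM in the parental, 10.6 and 7.20 in the AfaR and 11.5 and 7.76 in the ErlR libraries and was called in neither model, with log2 fold changes of -1.09 (adjusted p = 0.0641) in AfaR and -1.01 (adjusted p = 0.0991) in ErlR. The ErlR and AfaR libraries of CXCL3 overlapped the parental range. CXCL5 was low, at most 8.34 CPM, and was called lower in both models, at log2 fold changes without parental replicate 2 of -2.52 (adjusted p = 0.0491) in AfaR and -5.41 (adjusted p = 0.0104) in ErlR. Its 171 counts in the parental libraries against 1 in the ErlR libraries gave a ratio of 160 with a 95% exact interval of 28.3 to 6340, which covers counting error only. CXCL5 passed the filter within Cal27 only through the parental libraries, so the direction of both calls followed from the filter. CXCL6 had at most 0.117 CPM in Cal27 and was not tested.

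In FaDu the ELR chemokines had lower levels than in Cal27. CXCL8 had 14.0 and 12.0 CPM in the parental, 13.2 and 23.0 in the AfaR and 11.8 and 20.6 in the ErlR libraries of FaDu, and CXCL1 had 3.88 and 3.90 CPM in the parental, 3.59 and 7.90 in the AfaR and 2.69 and 5.03 in the ErlR libraries. The libraries of the 3 groups overlapped for both. CXCL2 had 0.485 and 0.312 CPM in the parental, 0.388 and 0.617 in the AfaR and 1.66 and 1.37 in the ErlR libraries of FaDu, with both ErlR libraries above the others and a log2 fold change of 1.89 (adjusted p = 0.0702). CXCL3 stayed between 0.104 and 0.392 CPM. All 5 tested ELR chemokines were higher in Cal27 parental than in FaDu parental cells, against 19.1% of all genes. CXCL1 was higher by 88.2-fold (log2 fold change 6.46, SE 0.53, adjusted p = 9.43e-07), CXCL8 by 42.4-fold (log2 fold change 5.41, SE 0.47, adjusted p = 1.33e-06), CXCL2 by 64.2-fold and CXCL3 by 104-fold. CXCL3 and CXCL5 entered this test through their Cal27 counts. Without Cal27 parental replicate 2 the log2 fold changes were 5.59 (adjusted p = 7.31e-07) for CXCL1 and 5.85 (adjusted p = 2.46e-06) for CXCL3.

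Of the CC chemokines, CCL2 fell in 1 Cal27 model, and CCL20 and CCL28 in both. CCL2, which attracts monocytes, had 66.5 and 137 CPM in the parental, 117 and 111 in the AfaR and 5.88 and 3.97 in the ErlR libraries of Cal27. The AfaR libraries lay within the parental range (log2 fold change 0.16, SE 0.29, adjusted p = 0.693), and the ErlR libraries were 21.1-fold lower (log2 fold change -4.40, SE 0.35, adjusted p = 8.14e-05). The ErlR call was kept with any library left out, at a log2 fold change of -3.76 (adjusted p = 1.50e-06) without parental replicate 2. CCL20, which attracts CCR6-bearing lymphocytes and dendritic cells, had 23.4 and 60.8 CPM in the parental, 2.43 and 1.68 in the AfaR and 1.21 and 1.83 in the ErlR libraries and was lower in both models, by 20.3-fold in AfaR (log2 fold change -4.35, SE 0.46, adjusted p = 0.000128) and 27.9-fold in ErlR (log2 fold change -4.80, SE 0.48, adjusted p = 0.00026). Without parental replicate 2 the CCL20 changes were -3.50 (adjusted p = 1.35e-05) and -3.94 (adjusted p = 2.73e-05). CCL28, a mucosal chemokine, had 14.5 and 33.3 CPM in the parental, 8.21 and 7.55 in the AfaR and 4.28 and 4.58 in the ErlR libraries. It was lower in ErlR (log2 fold change -2.46, SE 0.36, adjusted p = 0.00156) and in AfaR (log2 fold change -1.60, SE 0.34, adjusted p = 0.00567), and without parental replicate 2 the changes were -1.72 (adjusted p = 0.00173) in ErlR and -0.88 (adjusted p = 0.0308) in AfaR. Without AfaR replicate 1 the AfaR change was -1.66 (adjusted p = 0.0502).

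In FaDu these chemokines were near the lower end of the range. CCL2 had 2.09 and 5.04 CPM in the parental, 5.92 and 3.46 in the AfaR and 2.75 and 4.45 in the ErlR libraries of FaDu, with overlapping groups and no call. CCL20 had at most 0.327 CPM and was not tested within FaDu, and CCL28 had 0.0485 and 0 CPM in the parental, 0.485 and 1.07 in the AfaR and 0.0639 and 0.523 in the ErlR libraries. The call of CCL28 in FaDu AfaR rested on 36 counts against 1, a ratio of 31.9 with a 95% exact interval of 5.38 to 1296 for counting error only. This call was lost without either parental library or AfaR replicate 2. CCL28 passed the filter within FaDu only through the AfaR libraries, so the direction of the call followed from the filter. Between the parental lines, CCL20 had 1444 counts in Cal27 against 1 in FaDu, a ratio of 1677 with an interval of 300.5 to 66270. CCL5, a chemokine for T cells, was called in none of these 5 comparisons. It had 1.36 and 2.44 CPM in the parental, 1.55 and 15.9 in the AfaR and 1.92 and 0.131 in the ErlR libraries of FaDu, where AfaR replicate 2 alone was high, and 0.291 and 1.87 CPM in the parental, 2.38 and 2.38 in the AfaR and 0.831 and 0.244 in the ErlR libraries of Cal27.

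Of the 7 other chemokine genes with a CXC or CX3C motif, 4 were tested in Cal27. There 1 was higher and 1 lower in AfaR, against 11.5% and 8.06% of all genes, and 2 were lower in ErlR, against 9.92%. In FaDu 0 of 2 tested were called in either model, also at an unadjusted p and with DESeq2. This is near the shares of all genes there, at most 6.48% in 1 direction. CXCL16, a membrane-anchored chemokine, had 152 and 178 CPM in the parental, 53.5 and 55.5 in the AfaR and 81.4 and 64.7 in the ErlR libraries of Cal27 and fell in both models, by 3.03-fold in AfaR (log2 fold change -1.60, SE 0.15, adjusted p = 6.93e-05) and 2.31-fold in ErlR (log2 fold change -1.21, SE 0.15, adjusted p = 0.00077). It had 21.3 and 24.8 CPM in the parental, 18.6 and 25.2 in the AfaR and 36.6 and 40.1 in the ErlR libraries of FaDu, without a call. Its gene overlaps MED11 on the opposite strand, and whether the counting used strand is not stated. CXCL11, a ligand of CXCR3 that interferon induces, had 7.46 and 7.82 CPM in the parental, 21.7 and 21.5 in the AfaR and 6.32 and 6.91 in the ErlR libraries of Cal27 and at most 1.36 CPM in FaDu. It rose 2.83-fold in Cal27 AfaR (log2 fold change 1.50, SE 0.18, adjusted p = 0.000295) and was not called in ErlR, at a log2 fold change of -0.23 (adjusted p = 0.396). CXCL10, another CXCR3 ligand, had 7.34 and 6.24 CPM in the parental, 13.6 and 11.9 in the AfaR and 3.96 and 1.89 in the ErlR libraries. It was lower in ErlR (log2 fold change -1.24, SE 0.33, adjusted p = 0.0227) and was not called in AfaR, at a log2 fold change of 0.91 (adjusted p = 0.0412). The ErlR call was lost without parental replicate 1 or ErlR replicate 2. Both genes overlap ART3 on the opposite strand.

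CXCL10 in FaDu had 0.146 and 5.35 CPM in the parental, 2.96 and 2.72 in the AfaR and 1.47 and 0.0654 in the ErlR libraries, and its parental pair alone spanned nearly the whole range of the line. CX3CL1, a membrane-bound chemokine also called fractalkine, had 24.0 and 44.4 CPM in the parental, 45.6 and 31.0 in the AfaR and 16.2 and 22.1 in the ErlR libraries of Cal27 and at most 0.416 CPM in FaDu. It was called in neither Cal27 model, at log2 fold changes of 0.16 (adjusted p = 0.693) in AfaR and -0.86 (adjusted p = 0.0607) in ErlR, and was 103-fold higher in Cal27 than FaDu parental cells. CXCL12, CXCL14 and CXCL17 did not pass the filter in either line and had at most 1.75 CPM in any library.

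The cytokines that signal through the shared receptor subunit encoded by IL6ST moved apart from each other. IL6 had 28.0 and 47.4 CPM in the parental, 211 and 215 in the AfaR and 11.2 and 36.1 in the ErlR libraries of Cal27. Both AfaR libraries were above every other library of the study, 5.65-fold over the parental group (log2 fold change 2.50, SE 0.43, adjusted p = 0.00189), and the call held with any library left out. The ErlR libraries overlapped the parental ones, with a log2 fold change of -0.70 (adjusted p = 0.253). In FaDu, IL6 had 0.194 and 0.416 CPM in the parental, 1.16 and 2.51 in the AfaR and 1.53 and 0.719 in the ErlR libraries, and the AfaR group was called higher (log2 fold change 2.57, SE 0.63, adjusted p = 0.026). The FaDu call was lost without AfaR replicate 2, at a log2 fold change of 1.90 (adjusted p = 0.167), and without either parental library. The gene overlaps IL6-AS1 on the opposite strand.

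LIF fell in both AfaR models. LIF had 157 and 119 CPM in the parental, 57.1 and 73.5 in the AfaR and 106 and 83.7 in the ErlR libraries of Cal27, and AfaR was lower (log2 fold change -1.08, SE 0.19, adjusted p = 0.00197), while ErlR was not called, at a log2 fold change of -0.57 (adjusted p = 0.0481). The Cal27 AfaR call was lost without parental replicate 1 or AfaR replicate 1, at log2 fold changes of -0.86 (adjusted p = 0.00924) and -0.91 (adjusted p = 0.0315). In FaDu, LIF had 13.5 and 10.1 CPM in the parental, 4.95 and 4.69 in the AfaR and 9.21 and 21.2 in the ErlR libraries. AfaR was again lower (log2 fold change -1.31, SE 0.35, adjusted p = 0.034), a call lost without any 1 of the 4 libraries compared, while ErlR overlapped parental cells. LIF overlaps LIF-AS1 and LIF-AS2 on the opposite strand. IL11 had 1.07 and 1.61 CPM in the parental, 1.16 and 1.19 in the AfaR and 4.09 and 6.21 in the ErlR libraries of FaDu and 7.86 and 3.50 CPM in the parental, 6.05 and 16.7 in the AfaR and 6.20 and 10.9 in the ErlR libraries of Cal27. It was called in FaDu ErlR (log2 fold change 1.93, SE 0.37, adjusted p = 0.0267), and without ErlR replicate 2 the log2 fold change was 1.60 (adjusted p = 0.145). The IL11 call was also lost without either parental library.

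Of the 6 members IL7, IL15, IL23A, IL24, IL32 and TSLP, 4 were higher in FaDu AfaR, against 6.48% of all genes, and 3 in FaDu ErlR, against 1.54%. In Cal27 AfaR 0 were called (2 at an unadjusted p, 0 with DESeq2), where 11.5% of all genes were higher and 8.06% lower. With so few genes, this 0 cannot be set apart from those shares. In Cal27 ErlR 2 were lower, against 9.92% of all genes. IL7, a growth factor of lymphocytes, had 0.874 and 0.936 CPM in the parental, 3.98 and 7.53 in the AfaR and 4.35 and 4.97 in the ErlR libraries of FaDu. Both resistant models lay above both parental libraries, AfaR by 6.26-fold (log2 fold change 2.65, SE 0.38, adjusted p = 0.00462) and ErlR by 5.08-fold (log2 fold change 2.34, SE 0.39, adjusted p = 0.0187). The AfaR call held with any library left out, and the ErlR call was lost without either parental library or ErlR replicate 2. In Cal27, IL7 had 3.79 and 5.19 CPM in the parental, 5.56 and 4.82 in the AfaR and 0.958 and 0.489 in the ErlR libraries and was lower in ErlR (log2 fold change -2.65, SE 0.40, adjusted p = 0.00184), a call that held with any library left out. In Cal27 AfaR it was not called, at a log2 fold change of 0.21 (adjusted p = 0.65). The gene overlaps ZC2HC1A on the opposite strand.

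IL24, a cytokine of the IL10 family, had 1.84 and 2.86 CPM in the parental, 2.23 and 3.50 in the AfaR and 5.56 and 12.7 in the ErlR libraries of FaDu and between 0.702 and 2.75 CPM in Cal27. Among the 4 models it was called only in FaDu ErlR (log2 fold change 1.94, SE 0.43, adjusted p = 0.0418), and without ErlR replicate 2 the value was 1.23 (adjusted p = 0.217). This call was also lost without either parental library. IL32 had 1.94 and 2.86 CPM in the parental, 4.46 and 12.0 in the AfaR and 1.28 and 2.03 in the ErlR libraries of FaDu and 79.3 and 77.4 CPM in the parental, 128 and 135 in the AfaR and 37.9 and 43.4 in the ErlR libraries of Cal27. It was called higher in FaDu AfaR (log2 fold change 1.76, SE 0.46, adjusted p = 0.0318), where without AfaR replicate 2 the log2 fold change was 0.88 (adjusted p = 0.239). The IL32 call was also lost without either parental library. In Cal27 its log2 fold changes were 0.75 (adjusted p = 0.00162) in AfaR and -0.97 (adjusted p = 0.00101) in ErlR, under the limit on size. TSLP, a cytokine of epithelial cells that acts on dendritic cells, stayed between 0.624 and 3.01 CPM in FaDu and was called in both models there, at log2 fold changes of 1.30 (adjusted p = 0.0499) and 1.78 (adjusted p = 0.0412). Both calls were lost without any 1 of the libraries compared. IL23A, with at most 2.72 CPM, was called in FaDu AfaR (log2 fold change 1.84), and IL15, with at most 4.00 CPM in Cal27, was called lower in Cal27 ErlR (log2 fold change -1.42). The IL23A call was lost without any 1 of the libraries compared, and the IL15 call without parental replicate 2 or ErlR replicate 1.

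The colony-stimulating factors included the 1 member that was called in opposite directions in the 2 Cal27 models. CSF1, the growth factor of macrophages, had 46.6 and 129 CPM in the parental, 286 and 261 in the AfaR and 27.5 and 37.5 in the ErlR libraries of Cal27. Both AfaR libraries were above the parental ones (log2 fold change 1.64, SE 0.37, adjusted p = 0.00769) and both ErlR libraries were below them (log2 fold change -1.46, SE 0.38, adjusted p = 0.0202). Without parental replicate 2 the changes were 2.55 (adjusted p = 8.87e-06) in AfaR and -0.53 (adjusted p = 0.117) in ErlR, and with DESeq2 the ErlR adjusted p was 0.0523. The AfaR call was lost without AfaR replicate 1, at a log2 fold change of 1.57 (adjusted p = 0.0581). The ErlR call was also lost without ErlR replicate 1, at a log2 fold change of -1.25 (adjusted p = 0.101). In FaDu, CSF1 had 11.1 and 13.4 CPM in the parental, 17.5 and 52.2 in the AfaR and 18.8 and 7.13 in the ErlR libraries, with AfaR replicate 2 high and no call in AfaR (log2 fold change 1.49, adjusted p = 0.0681). CSF2, which encodes GM-CSF, had 29.6 and 19.7 CPM in the parental, 33.0 and 32.6 in the AfaR and 11.0 and 12.5 in the ErlR libraries of Cal27 and at most 0.494 CPM in FaDu. It was lower in ErlR (log2 fold change -1.09, SE 0.21, adjusted p = 0.00499), a call lost without parental replicate 1 or ErlR replicate 1, and was not called in AfaR (log2 fold change 0.41, adjusted p = 0.133). CSF3, which encodes G-CSF, had at most 7.06 CPM and was called lower in both Cal27 models. Without parental replicate 2 its log2 fold changes were -3.59 in AfaR and -5.78 in ErlR. It had 157 counts in the parental libraries against 1 in ErlR, a ratio of 147 with a 95% exact interval of 25.9 to 5824. CSF3 passed the filter within Cal27 only through the parental libraries, so the direction of both calls followed from the filter.

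Of the TNF superfamily ligands, TNFSF10, which encodes the death receptor ligand TRAIL and held an ISRE match but no NF-kB match in its window, fell in Cal27 ErlR. TNFSF10 had 52.3 and 126 CPM in the parental, 264 and 89.8 in the AfaR and 8.50 and 9.23 in the ErlR libraries of Cal27. The ErlR libraries were 10.2-fold below the parental group (log2 fold change -3.35, SE 0.54, adjusted p = 0.00239), and the AfaR group overlapped it (log2 fold change 0.99, SE 0.47, adjusted p = 0.13). Without parental replicate 2 the ErlR change was -2.57 (adjusted p = 0.00206). TNFSF10 had 7.14 and 6.97 CPM in the parental, 13.4 and 45.8 in the AfaR and 10.9 and 6.87 in the ErlR libraries of FaDu, and the AfaR group was called higher (log2 fold change 2.05, SE 0.48, adjusted p = 0.0215). Without AfaR replicate 2 that change was 0.91 (adjusted p = 0.107). The call was also lost without either parental library. TNF itself had 20.2 and 23.5 CPM in the parental, 5.02 and 14.5 in the AfaR and 3.32 and 12.3 in the ErlR libraries of Cal27 and at most 0.676 CPM in FaDu. It was called in neither Cal27 model, at log2 fold changes of -1.17 (adjusted p = 0.12) in AfaR and -1.51 (adjusted p = 0.0723) in ErlR, and the replicates of each resistant group differed widely. It was 65.2-fold higher in Cal27 than in FaDu parental cells, where leaving out 1 FaDu parental library moved the log2 fold change from 6.03 to 4.99 (adjusted p = 0.000841) or 11.63 (adjusted p = 0.000172). TNFSF15, with at most 3.83 CPM in FaDu, was called higher in FaDu AfaR (log2 fold change 1.63), a call lost without AfaR replicate 2 or either parental library.

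Of the NF-kB feedback genes, 3 of 4 were called lower in Cal27 ErlR, against 9.92% of all genes, and 1 of 4 in Cal27 AfaR, against 8.06%. NFKBIA encodes the inhibitor that holds NF-kB in the cytoplasm. It had 159.9 and 214 CPM in the parental, 161 and 155 in the AfaR and 81.0 and 103 in the ErlR libraries of Cal27, with ErlR lower (log2 fold change -1.05, SE 0.18, adjusted p = 0.00271) and AfaR not called (log2 fold change -0.25, adjusted p = 0.289). Without parental replicate 2 the ErlR value was -0.81 (adjusted p = 0.0145). Without ErlR replicate 1 it was -0.88 (adjusted p = 0.0201), under the limit on size in both cases. NFKBIZ encodes a nuclear co-activator of some NF-kB targets. It had 48.0 and 93.8 CPM in the parental, 48.1 and 30.1 in the AfaR and 9.26 and 21.5 in the ErlR libraries and was 4.68-fold lower in ErlR (log2 fold change -2.23, SE 0.42, adjusted p = 0.00484), a call that held with any library left out, at a log2 fold change of -2.93 (adjusted p = 0.00138) without ErlR replicate 2. BIRC3, which encodes a ubiquitin ligase that restrains the non-canonical pathway, had 79.3 and 169 CPM in the parental, 62.4 and 58.4 in the AfaR and 34.6 and 36.1 in the ErlR libraries. It was lower in ErlR (log2 fold change -1.84, SE 0.29, adjusted p = 0.00214) and in AfaR (log2 fold change -1.04, SE 0.28, adjusted p = 0.0173), and without parental replicate 2 the values were -1.17 (adjusted p = 0.000911) and -0.39 (adjusted p = 0.116). The BIRC3 call in AfaR was also lost without either AfaR library. TNFAIP3 encodes A20, which edits ubiquitin chains on the signalling complex. It had 243 and 249.5 CPM in the parental, 118 and 138 in the AfaR and 168 and 122 in the ErlR libraries, and its log2 fold changes of -0.94 (adjusted p = 0.00218) in AfaR and -0.79 (adjusted p = 0.00805) in ErlR were under the limit on size.

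In FaDu 0 of these 4 genes were called in either model with edgeR or DESeq2, and 1 in each at an unadjusted p. The 0 of 4 is near the shares of all genes there, 6.48% higher and 0.954% lower in AfaR and 1.54% and 0.504% in ErlR. NFKBIA had 63.5 and 65.5 CPM in the parental, 80.1 and 103 in the AfaR and 70.7 and 77.6 in the ErlR libraries of FaDu, TNFAIP3 had 34.7 and 28.9 CPM in the parental, 17.9 and 31.8 in the AfaR and 27.7 and 80.0 in the ErlR libraries, and BIRC3 had 10.0 and 10.1 CPM in the parental, 8.39 and 14.2 in the AfaR and 6.52 and 8.89 in the ErlR libraries. Only NFKBIA and NFKBIZ had both AfaR libraries above both parental ones. NFKBIZ had 1.46 and 1.51 CPM in the parental, 2.28 and 4.61 in the AfaR and 3.58 and 3.07 in the ErlR libraries, with log2 fold changes of 1.20 (adjusted p = 0.0601) in AfaR and 1.15 (adjusted p = 0.133) in ErlR. All 4 feedback genes were higher in Cal27 than in FaDu parental cells, against 19.1% of all genes, from 2.90-fold for NFKBIA to 47.6-fold for NFKBIZ.

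The serum amyloid genes SAA1 and SAA2, acute phase genes that lie near each other on chromosome 11, also fell in Cal27 ErlR. SAA1 had 98.4 and 209 CPM in the parental, 56.7 and 45.4 in the AfaR and 14.8 and 15.3 in the ErlR libraries of Cal27, and SAA2 had 42.2 and 89.2 CPM in the parental, 22.0 and 11.6 in the AfaR and 2.30 and 2.57 in the ErlR libraries. Both were lower in ErlR, SAA1 by 10.4-fold (log2 fold change -3.38, SE 0.32, adjusted p = 0.00019) and SAA2 by 27.4-fold (log2 fold change -4.78, SE 0.45, adjusted p = 0.000166). In AfaR they fell by 3.01-fold and 3.90-fold, and without parental replicate 2 the AfaR changes were -0.94 (adjusted p = 0.00275) for SAA1 and -1.32 (adjusted p = 0.00566) for SAA2. In ErlR they were -2.72 (adjusted p = 5.67e-06) and -4.12 (adjusted p = 1.36e-05) without it. In FaDu, SAA1 had 0.194 and 0.572 CPM in the parental, 1.65 and 7.94 in the AfaR and 1.02 and 0.719 in the ErlR libraries and was called higher in AfaR (log2 fold change 3.63, SE 0.78, adjusted p = 0.0168). Without AfaR replicate 2 the value was 2.09 (adjusted p = 0.119). Without parental replicate 1 it was 3.03 (adjusted p = 0.126). SAA2 had at most 1.07 CPM in FaDu. These 2 genes are near-identical copies and SAA2 overlaps SAA2-SAA4, so the split of reads between them is uncertain.

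Set directly against each other, the 2 resistant models of Cal27 differed in 23 of 38 members. AfaR was higher than ErlR for 18, against 18.2% of all genes, and lower for 5, against 8.86%. CCL2 was 23.6-fold higher in AfaR (log2 fold change 4.56, SE 0.35, adjusted p = 1.44e-05), TNFSF10 20.3-fold (log2 fold change 4.35, SE 0.56, adjusted p = 0.000254), IL6 9.16-fold (log2 fold change 3.20, SE 0.45, adjusted p = 0.000404) and CSF1 8.58-fold (log2 fold change 3.10, SE 0.40, adjusted p = 0.00025). Without AfaR replicate 1 the log2 fold change of TNFSF10 was 3.36 (adjusted p = 0.00206), and that of IL6 was 2.58 (adjusted p = 0.000151) without ErlR replicate 1 and 4.24 (adjusted p = 8.80e-06) without ErlR replicate 2. The 5 lower genes were all 4 tested members of the interleukin 1 family and IL23A, with IL1A 17.5-fold lower in AfaR (log2 fold change -4.13, SE 0.16, adjusted p = 8.26e-07) and IL1B 6.38-fold lower (log2 fold change -2.67, SE 0.16, adjusted p = 3.74e-06). Per kilobase, the highest members were CXCL8 at 119 ± 10.6 (SD, n = 2), CXCL1 at 103 ± 36.6 and IL6 at 103 ± 1.12 CPM in Cal27 AfaR, and IL1A at 80.9 ± 0.678, IL1B at 63.9 ± 6.88 and NFKBIA at 38.8 ± 6.60 CPM in Cal27 ErlR. In AfaR both CXCL8 libraries lay above both IL6 libraries, and the CXCL1 pair spanned both genes.

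In FaDu the models differed in 9 of 29 members. AfaR was higher than ErlR for SAA1, IL32 and TNFSF10, against 4.45% of all genes higher, and lower for 6, against 1.50%. The 6 were IL11, IL1RN, IL24, LIF, IL1A and IL1B, with log2 fold changes from -2.13 for IL11 to -1.33 for IL1A. Without AfaR replicate 2 no higher call was left, with 0 higher and 5 lower, at log2 fold changes of 0.91 (adjusted p = 0.446) for SAA1, 1.43 (adjusted p = 0.1) for IL32 and 0.60 (adjusted p = 0.263) for TNFSF10. These 3 calls were also lost without either ErlR library. Without ErlR replicate 2 the 9 calls became 2, those of IL1A and IL1B, which held with any library left out. Per kilobase, IL1A at 37.0 ± 4.55, NFKBIA at 31.3 ± 2.06 and IL1B at 24.8 ± 2.50 CPM were the highest members in FaDu ErlR.

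Whether the same resistance changed these genes differently in the 2 lines was tested in the 12-library fit. The afatinib effect differed for 13 of 38 members, against 12.3% of all genes in either direction, and the erlotinib effect for 18, against 10.9%. Of the 29 members that passed the filter on low counts within both lines, 10 differed for afatinib and 17 for erlotinib. The others, CCL20, CSF3 and SAA2 for afatinib and CCL20 for erlotinib, entered the test through their Cal27 counts, and their FaDu counts were too low for a value of the difference. In all called members the log2 fold change in FaDu minus that in Cal27 was positive. This sign does not mean a larger change in FaDu, since it includes members that fell in Cal27 and were not called in FaDu. No member was called in the other direction, also at an unadjusted p and with DESeq2. Over all 38 tested, the difference was negative for 7 members for afatinib and for 4 for erlotinib. IL1A gave a difference in log2 fold change of 5.09 (adjusted p = 9.12e-08) for afatinib and 2.26 (adjusted p = 4.47e-05) for erlotinib. CCL2 differed by 4.39 (adjusted p = 0.00104) for erlotinib and was not called for afatinib, at a log2 fold change of 0.23 (adjusted p = 0.829). IL6, higher in both AfaR models, gave 0.11 (adjusted p = 0.959) for afatinib, and LIF, lower in both, gave -0.22 (adjusted p = 0.784).

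Other genes of the pathway were counted in 6 lists. Of 26 receptor genes tested in FaDu and 29 in Cal27, 3 were higher and 1 lower in FaDu AfaR, 1 higher in FaDu ErlR, 6 higher and 5 lower in Cal27 AfaR and 8 lower in Cal27 ErlR. Of all genes, 6.48% were higher and 0.954% lower in FaDu AfaR, 1.54% higher and 0.504% lower in FaDu ErlR, 11.5% higher and 8.06% lower in Cal27 AfaR, while Cal27 ErlR had 3.56% higher and 9.92% lower, so that 1 of 26 in FaDu ErlR is near the share of all genes. IL6ST and LIFR, subunits of the receptors for IL6 and LIF, rose in Cal27 AfaR by 1.67 and 2.01 on the log2 scale, while IL6R, which binds IL6, changed by -2.07. IL1R1, the signalling receptor of interleukin 1, changed by -2.22 on the log2 scale in Cal27 ErlR, from 41.9 ± 15.7 to 9.19 ± 2.19 CPM (SD, n = 2). IL7R was higher in both FaDu models, with log2 fold changes of 1.76 and 1.11. IL1RL1, the receptor of IL33, was lower in FaDu AfaR (log2 fold change -3.00).

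Among the sensors and adaptors upstream of NF-kB, 2 of 26 were higher in FaDu AfaR, 0 were called in FaDu ErlR (1 at an unadjusted p), 5 of 27 were higher and 1 lower in Cal27 AfaR, and 2 were higher and 6 lower in Cal27 ErlR. The 2 of 26 are near the 6.48% of all genes higher in FaDu AfaR, and the 1 of 27 is below the 8.06% lower in Cal27 AfaR. The 5 higher in Cal27 AfaR stood against 11.5%, and the 2 higher and 6 lower in Cal27 ErlR against 3.56% and 9.92%. TLR4, the receptor of lipopolysaccharide, rose in both Cal27 models, by 4.95 in AfaR and 1.58 in ErlR on the log2 scale. IRAK3, an inhibitory kinase-like protein of the pathway, was higher in FaDu AfaR (log2 fold change 2.21) and lower in Cal27 ErlR (log2 fold change -3.91). Of 14 genes listed with the IKK and NF-kB subunits, 0 were called in either FaDu model (1 at an unadjusted p in AfaR). In Cal27 AfaR 2 were lower (CARD14 and MAP3K8), against 8.06% of all genes. In Cal27 ErlR CARD10 was higher (log2 fold change 2.77), against 3.56%, and MAP3K8 lower (log2 fold change -2.26), against 9.92%. None of these called genes encodes an IKK or NF-kB subunit itself. Of the other inhibitors, 0 of 14 were called in FaDu, also at an unadjusted p. Of 15 in Cal27, 1 was lower in AfaR, near the 8.06% of all genes, and 3 in ErlR, against 9.92%. ZC3H12A, which encodes an RNase that degrades cytokine mRNA, was among the latter (log2 fold change -2.90).

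The 14 other NF-kB target genes tested in Cal27 were mostly lower in ErlR (median log2 fold change -2.38). There 11 were lower, against 9.92% of all genes, and 0 higher, against 3.56%, with the same counts at an unadjusted p. In AfaR 5 were lower, against 8.06%, and 2 higher, near the 11.5% of all genes. CFB, a complement factor, changed by -5.39 on the log2 scale and LCN2, an iron-binding acute phase gene, by -4.71 in ErlR. LCN2 changed by -4.74 on the same scale in AfaR, where PTX3 and TNFRSF9 rose by 2.58 and 2.05. Of 13 tested in FaDu, 2 were higher in AfaR, CD40 among them (log2 fold change 3.13), against 6.48% of all genes. In FaDu ErlR 1, LCN2, was higher (log2 fold change 1.52), against 1.54%. Of 8 genes of cytokine processing and release, PYCARD, the inflammasome adaptor, was higher in both FaDu models (log2 fold changes 2.89 and 1.76) and lower in both Cal27 models (log2 fold changes -1.24 and -1.87). In all, 3 of the 8 were higher in FaDu AfaR, against 6.48% of all genes. In FaDu ErlR 2 were higher, against 1.54%, and 1 lower, against 0.504%. In Cal27 AfaR 1 was lower, near the 8.06% of all genes, and in Cal27 ErlR 3, against 9.92%.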

How the data were processed

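RNA-seq libraries of 6 groups with 2 libraries each were compared, 12 in all. The authors sequenced poly(A) RNA with ERCC spike-ins in paired reads and deposited raw counts per Ensembl gene. Per the submitters' processing notes, Trimmomatic 0.36, STAR 2.5.2b and featureCounts of Subread 1.5.2 were used with GRCh38. The strand setting is not given in the sources used here. The 4 deposited tables of the authors' normalised values and comparisons were not used. Libraries held 16334937 to 23399259 counts on genes, with spike-ins at 3.86% to 5.82%, which were left out of library sizes.

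Counts were fitted with edgeR 4.0.16 in R 4.3.3 (TMM, filterByExpr, quasi-likelihood F test) in the 6 libraries of each line, and in all 12 libraries for comparisons between lines. P-values were adjusted by Benjamini-Hochberg over the 15092, 15269 or 16240 genes tested in FaDu, Cal27 or both. A call needed an adjusted p under 0.05 together with a change of more than 1, up or down, on the log2 scale. Printed CPM use the 12-library TMM factors. Ratios with 3 or fewer counts in a group were given with exact 95% intervals. The procedure was tested on simulated data. Alternatives were DESeq2 1.42.0, no filter on low counts, ERCC scaling, the replicate number as a block, only the 4 libraries compared, unadjusted p-values and leaving out each library. Samples were grouped by their labels.

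The 44 members and all lists were chosen with earlier results of these data known. Library values are given for the 31 members that were called in a model or between the parental lines and reached a mean of 5 CPM. CCL5, the 1 member with that mean and no such call, was added after its values were seen. From each list of other pathway genes, at most the 2 largest rises and 2 largest falls per comparison could be named. Replicate libraries differed by more than sampling noise in each group, so no pair was treated as 1 library. Promoter windows came from a RefSeq table of GRCh38.p14 and were searched over 250 bases on both strands. Protein sequences were not used here.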

Additional observations from a re-analysis of the deposited data

Results flagged for a closer look

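For the members named here, a resistance effect differed between the lines in the test of the difference itself, the interaction term of edgeR in all 12 libraries. Values are the log2 fold change in FaDu minus that in Cal27, and all are positive. For afatinib, 10 of 29 members that passed the filter on low counts within both lines were called. CCL28 gave 6.24 (adjusted p = 0.00301), resting in FaDu on 36 counts against 1, and SAA1 gave 5.26 (adjusted p = 0.00168). In the interleukin 1 family, IL1A gave 5.09 (adjusted p = 9.12e-08), IL1B 3.54 (adjusted p = 7.38e-07) and IL1RN 2.66 (adjusted p = 0.00913). IL23A gave 3.02 (adjusted p = 0.00816), IL7 2.46 (adjusted p = 0.00625), TNFSF15 2.56 (adjusted p = 0.00426), NFKBIZ 2.09 (adjusted p = 0.0436) and CXCL16 1.53 (adjusted p = 0.000798). Of these, the calls of IL1RN and NFKBIZ were lost without some single library, and CCL28 gave 8.46 (adjusted p = 0.0136) without FaDu parental replicate 1 and SAA1 3.71 (adjusted p = 0.00754) without FaDu AfaR replicate 2.

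For erlotinib, 17 of the 29 were called. Among the chemokines, CCL28 gave 5.65 (adjusted p = 0.0195), resting in FaDu on 9 counts against 1, CCL2 4.39 (adjusted p = 0.00104), CXCL8 3.98 (adjusted p = 0.00116), CXCL1 3.62 (adjusted p = 0.00491), CXCL2 2.39 (adjusted p = 0.0232) and CXCL16 1.92 (adjusted p = 0.000343). IL7 gave 4.98 (adjusted p = 0.000257), SAA1 4.55 (adjusted p = 0.0224), TNFSF10 3.66 (adjusted p = 0.0134), TNFSF15 1.87 (adjusted p = 0.0277) and TSLP 2.68 (adjusted p = 0.0464). IL1RN gave 2.75 (adjusted p = 0.00391), IL1B 2.36 (adjusted p = 3.02e-05) and IL1A 2.26 (adjusted p = 4.47e-05). The feedback genes NFKBIZ, BIRC3 and NFKBIA gave 3.37 (adjusted p = 0.00587), 1.43 (adjusted p = 0.042) and 1.22 (adjusted p = 0.00447). The calls of CCL28, CXCL2, SAA1, TNFSF10, TNFSF15, TSLP, BIRC3 and NFKBIA were lost without some single library. CCL20, CSF3 and SAA2 had too few counts for a test within FaDu. From parental to AfaR libraries of FaDu they went from 1 to 5, 2 to 7 and 3 to 27 counts, ratios of 4.43, 3.10 and 7.98 with 95% exact intervals of 0.496 to 209.7, 0.591 to 30.6 and 2.46 to 41.1 for counting error only, and CCL20 went from 1 to 6 counts in ErlR, a ratio of 7.73 with an interval of 0.937 to 355. Line and medium cannot be told apart in these values.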

How the results depend on the processing

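No call of a member that reached a mean of 5 CPM in some group turned to the other direction under any alternative that gave an adjusted p. Calls of the members below that mean were not part of this check. Groups of 2 libraries limit all calls, and the FaDu calls most. Without a filter on low counts, 17 members were called in FaDu AfaR and 10 in FaDu ErlR against parental cells, and 16 between the FaDu models. At an unadjusted p, 10 were called in FaDu ErlR and 15 between the FaDu models. With ERCC scaling, 13 were called in FaDu ErlR, where the median of all genes moved to 0.49 on the log2 scale. The same scaling moved that median to 0.18 in FaDu AfaR, -0.29 between the FaDu models and 0.62 between the parental lines. It changed the genes called higher and lower from 233 and 76 to 1514 and 62 in FaDu ErlR, from 671 and 226 to 437 and 743 between the FaDu models, and from 3099 and 2031 to 5340 and 956 between the parental lines. The cause was not tested.

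When each library was left out, the number of members called against parental cells ran from 1 to 12 for AfaR and 1 to 6 for ErlR in FaDu, and from 11 to 21 for AfaR and 19 to 26 for ErlR in Cal27. It ran from 2 to 10 between the FaDu models, 17 to 23 between the Cal27 models and 30 to 33 between the parental lines. It ran from 9 to 17 for the afatinib and 12 to 18 for the erlotinib difference between lines. A left-out library leaves 1 library in its group, which is then assumed to vary like the others. The next tally covers only the called members that reached a mean of 5 CPM in some group. Of these values for single called members, 115 fell below the limits and 509 did not. With DESeq2 the calls against parental cells lost CXCL1 in Cal27 AfaR (adjusted p = 0.0937), CSF1 in Cal27 ErlR (adjusted p = 0.0523), and TSLP (adjusted p = 0.115) and IL23A (adjusted p = 0.0531) in FaDu AfaR, where CCL28 had no adjusted p, so that 8 members were called there in place of 11.

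The replicate numbers did not pair the samples, since the correlations of same-numbered deviations ran from -0.173 to 0.105. With the replicate number as a block, 10 members were called for AfaR and 5 for ErlR in FaDu, 17 for AfaR and 24 for ErlR in Cal27, 7 between the FaDu models, 22 between the Cal27 models and 32 between the parental lines, with 14 and 17 for the differences between lines. With the numbers of Cal27 AfaR crossed, an alternative chosen after seeing the data, 16 members were called there.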
